A study of Mus musculus with 16 samples.

Results

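The genes described here are the nuclear receptor genes Nr4a1, Nr4a2 and Nr4a3, the zinc finger factor genes Egr1, Egr2 and Egr3, and the corepressor genes Nab1 and Nab2. They were taken by exact symbol from a deposited gene count table, 8 of its 24421 rows. All 8 passed the filter on low counts and were among the 13554 genes tested. They were measured by RNA sequencing in naive T cells of C57BL/6 mice, sorted from lymph nodes into 4 groups with 4 biological replicates each.

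The sort took T cells that were CD25-, CD62Lhi and CD44lo and either CD4+ or CD8+, with no treatment or genetic change named. Within each lineage, the third with the highest surface CD5 formed the CD5hi group and the third with the lowest formed the CD5lo group. CD5 is an inhibitory receptor whose surface level follows the strength of the self-peptide signal that a T cell receives. The groups are called CD4 CD5lo, CD4 CD5hi, CD8 CD5lo and CD8 CD5hi below, and their replicates carry the numbers 1 to 4. The animals' age and sex, and whether each replicate is 1 animal or a pool, are not stated in the sources used here, so p-values measure the spread between these samples.

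The transcript of Cd5 itself followed the sort, with 237 to 276 CPM (counts scaled to a common library size) in CD4 CD5lo and 1349 to 1427 in CD4 CD5hi, and with 187 to 216 in CD8 CD5lo and 469 to 552 in CD8 CD5hi. Libraries held 71447252 to 93418385 counts. The labelled cell types fit their defining markers: Cd3e lay between 313 and 482 CPM in all 16 libraries, Cd4 at 971 CPM or more in each CD4 library and at 62.2 or less in each CD8 library, and Cd8a at 1563 or more in each CD8 library and at 11.4 or less in each CD4 library. A B cell list (14 of 16 markers in the table, none at 0 throughout) summed to 368.6 CPM in replicate 3 of CD4 CD5lo, 578 in replicate 3 of CD8 CD5lo and 939 in replicate 4 of CD8 CD5hi, and to 10.9 to 68.6 in the other libraries. Cd74, a B cell and antigen presentation gene, stood at 134.8, 191.8 and 319.5 CPM in those 3 libraries and at 16.5 or less elsewhere. Calls and signs of the 8 genes that changed without these 3 libraries are given beside the results.

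NR4A proteins are orphan nuclear receptors that bind DNA without a known hormone, and EGR proteins bind GC-rich sites through zinc fingers. Both families are switched on within minutes to hours of T cell receptor signalling, the EGR genes mainly through RAS and ERK, the NR4A genes also through calcium. In T cells, Nr4a1 (Nur77) is widely used as a reporter of receptor signal strength, the NR4A factors take part in deletion, tolerance, regulatory T cell identity and exhaustion, and EGR2 and EGR3 restrain activation and take part in anergy. NAB1 and NAB2 bind EGR1, EGR2 and EGR3 and repress their target genes, and NAB2 is itself a known EGR target, which closes a feedback loop.

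Sequences before the start sites are shown for the Nr4a genes because these 3 genes varied together across libraries, as described further on. They come from RefSeq windows (GRCm38.p6) that run from 250 bases before to 50 bases after a gene's start. Egr1 and Egr3 were not searched for any motif, and the other 6 of the 8 genes had a window that was used. The full cAMP response element TGACGTCA was in none of these windows. The capitals mark its shorter form CGTCA on either strand (TGACG when read on the other), a motif chosen after the sequences had been seen. Nr4a1 is shown from chr15:101266596-101266845 on the plus strand, which lies in an intron of a longer annotated transcript of the gene. Nr4a2 is shown from chr2:57124004-57124253 on the minus strand, and Nr4a3 from chr4:48045055-48045152 on the plus strand, where only the 98 bases before the annotated exon are printed.
Nr4a1: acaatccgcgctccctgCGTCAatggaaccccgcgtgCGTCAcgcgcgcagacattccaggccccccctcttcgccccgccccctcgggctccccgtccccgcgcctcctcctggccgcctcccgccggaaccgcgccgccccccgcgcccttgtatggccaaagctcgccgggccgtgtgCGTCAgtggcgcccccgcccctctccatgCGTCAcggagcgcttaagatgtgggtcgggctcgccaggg
Nr4a2: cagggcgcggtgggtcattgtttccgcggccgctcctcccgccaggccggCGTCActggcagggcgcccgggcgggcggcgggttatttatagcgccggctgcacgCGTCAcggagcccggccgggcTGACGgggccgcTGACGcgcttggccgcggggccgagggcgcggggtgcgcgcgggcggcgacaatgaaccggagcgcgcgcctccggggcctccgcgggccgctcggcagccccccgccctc
Nr4a3: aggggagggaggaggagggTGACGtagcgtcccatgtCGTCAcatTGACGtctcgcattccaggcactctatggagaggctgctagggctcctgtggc

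The 300-base windows of Nr4a1, Nr4a2 and Nr4a3 each held 4 short sites, of which 3 lie in the printed stretch of Nr4a3. Among the other members, each of 3 overlapping Egr2 windows held 2 short sites and the Nab1 window held 1. Of 32851 mouse promoter windows of that length, 20.8% held at least 1 short site and 0.231% held 4 or more. The EGR site GCGNGGGCG, searched on both strands, was found 3 times in the Nab1 window and once each in those of Nr4a1 and Nr4a2, and at least once in 5.55% and at least 3 times in 0.195% of all windows. The Nab2 window, chr10:127666654-127666953 within the annotated gene, held none of the motifs searched. The 3 Nab1 sites are shown because the NAB proteins act on EGR factors. They are printed from the minus strand and lie in annotated exon sequence at chr1:52500571-52500599, chr1:52500539-52500567 and chr1:52500468-52500496, and capitals mark the site. Site 1 matches GCGNGGGCG when read on the opposite strand.
Nab1 site 1: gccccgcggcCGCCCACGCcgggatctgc
Nab1 site 2: actcggccgcGCGTGGGCGggagccggag
Nab1 site 3: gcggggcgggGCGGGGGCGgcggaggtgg

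The CArG box, the site of serum response factor through which ERK signals reach EGR genes, was found in 4 of the 5 Egr2 windows and in 1.63% of all windows. Of those 4 windows, 3 overlap and share the same box, so the boxes are 2 in number. They lie outside annotated exons on the plus strand at chr10:67537484-67537513 and chr10:67537787-67537816, with the box in capitals.
Egr2 box 1: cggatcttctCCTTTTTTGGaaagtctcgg
Egr2 box 2: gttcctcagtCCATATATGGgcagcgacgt

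The MEF2 box occurred once, in the Nr4a2 window, against 3.19% of all windows with at least 1. The NF-kB site occurred once each in the Nr4a1 and Nab1 windows and as 2 overlapping matches in 1 Egr2 window, against 8.46% of all windows. The NBRE AAAGGTCA, to which NR4A proteins bind, and the AP-1 site TGANTCA were not among the letters of any window searched. Of all windows, 1.51% and 7.81% held them. Egr1 and Egr3 were left out of the search for these and all other motifs, including the CArG box. These matches describe letters only, and binding was not measured.

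Per kilobase of exon, Nr4a1 was the most abundant of the 8 transcripts in both CD4 groups, at 178.9 ± 82.6 CPM per kilobase in CD4 CD5lo and 159.9 ± 57.3 in CD4 CD5hi (SD, n = 4). Egr1 came next there, at 77.8 ± 19.8 and 59.4 ± 10.3 CPM per kilobase (SD, n = 4). In CD8 cells both were lower, with Nr4a1 at 65.4 ± 29.8 and 53.0 ± 20.7 and Egr1 at 42.8 ± 8.19 and 34.8 ± 5.76 CPM per kilobase in CD5lo and CD5hi (SD, n = 4). Nab2 held the third place in all 4 groups, between 24.9 ± 2.97 in CD4 CD5lo and 34.9 ± 3.93 in CD4 CD5hi, followed by Nab1 between 16.7 ± 1.16 in CD4 CD5lo and 21.3 ± 1.33 in CD8 CD5hi (SD, n = 4). The intervals of 1 SD of Nr4a1 and Egr1 overlapped in CD4 CD5lo and both CD8 groups, as did those of Egr1 and Nab2 in CD8 CD5hi, so the order of those neighbours was not clear there. The remaining genes, Egr3, Egr2, Nr4a3 and Nr4a2, had group means of 2.76 to 15.5 CPM per kilobase. Egr3 had the highest mean of these in each group, and Nr4a2 the lowest in both CD4 groups. The SD intervals of Nr4a2 and Nr4a3 overlapped in all 4 groups, and Egr2 overlapped both in the CD8 groups and Nr4a3 in the CD4 groups. Egr3 overlapped Nr4a3 in both CD4 groups, Egr2 in CD4 CD5lo and Nr4a2 in both CD8 groups, so its lead was not clear.

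**Figure D1:**
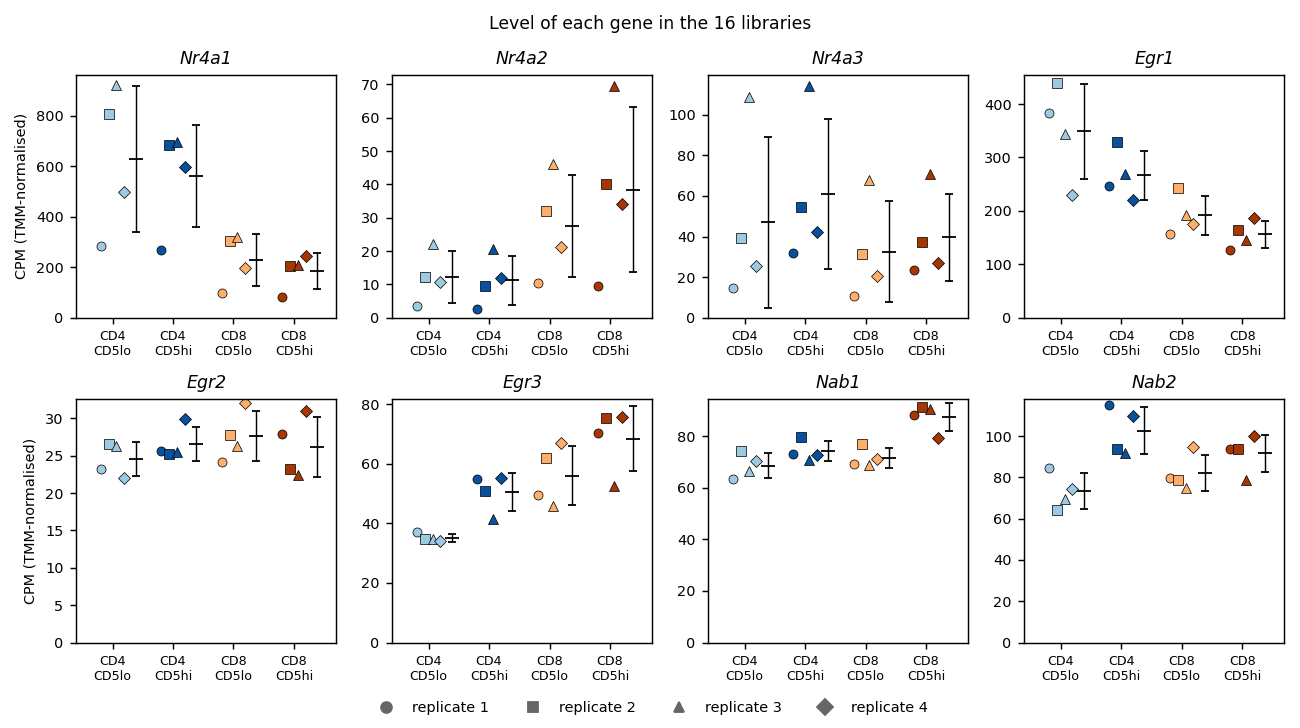
Level of each gene in CPM (vertical axes, each from 0) in the 16 libraries, with 1 point per library, the marker shape giving the replicate number and the bar the group mean with 1 SD (n = 4). Nr4a1 and Egr1 stand higher in CD4 than in CD8 groups, Nr4a2 and Egr3 the other way, and replicate 1 is the lowest of its group for all 3 Nr4a genes.

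Between CD5hi and CD5lo cells few of these genes passed the test, while the lineages differed at more of them. With higher CD5, Egr3 and Nab2 rose in CD4 cells and Nab1 rose in CD8 cells. Against CD4 cells, CD8 cells had less Nr4a1 and Egr1 and more Egr3 at both CD5 levels, and more Nab1 at high CD5. Egr2 passed in no comparison. All calls are edgeR quasi-likelihood tests at a Benjamini-Hochberg adjusted p under 0.05, adjusted over the 13554 genes.

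In CD4 cells, 2 of the 8 genes were higher in CD5hi, against 2.68% of all tested genes, and 0 were lower, against 1.4% (2 had an unadjusted p under 0.05, both higher, and DESeq2 called 0 lower). In CD8 cells, 1 was higher, against 5.95%, and 0 were lower, against 3.51% (2 had an unadjusted p under 0.05, both higher, and DESeq2 called 0 lower). Between lineages at low CD5, 1 gene was higher in CD8 cells, against 10% of all genes, and 2 were lower, against 9.44%. At high CD5, 2 were higher, against 15.6%, and 2 were lower, against 14.8%. The CD5 difference itself differed between lineages for 0 of the 8, against 0.31% of all genes in either direction (edgeR). Of the 8, 1 gene, Nab2, had an unadjusted p under 0.05 in that test, and DESeq2 and limma voom also called 0.

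The replicate numbers in the labels tracked shared deviations between most of the groups, and in those comparisons a fit with the number as a block changed calls of the Nr4a2 and Nr4a3 genes. The block was shared by all 16 libraries, so each blocked value also draws on groups whose numbers did not all pair. CD8 CD5lo and CD8 CD5hi libraries of the same number did not all deviate together, and the blocked counts for CD5 in CD8 cells, where Egr3 was also called, stand with the alternatives at the end. With the replicate block, 3 of the 8 were higher in CD4 CD5hi than in CD4 CD5lo, against 5.69% of all genes, and no gene of the 8 was lower, against 3.99%. At low CD5, 2 were then higher and 3 lower in CD8 cells, against 15.7% and 16.3% of all genes. At high CD5, 3 were higher and 3 lower, against 23.4% and 23.3%. The median log2 change of the 8 genes without the block was 0.11 in CD4 and 0.22 in CD8 cells for CD5hi against CD5lo, and 0.11 at low and -0.09 at high CD5 for CD8 against CD4. The medians of all tested genes in the same comparisons were -0.0075, -0.0028, 2e-04 and 0.01.

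**Figure D2:**
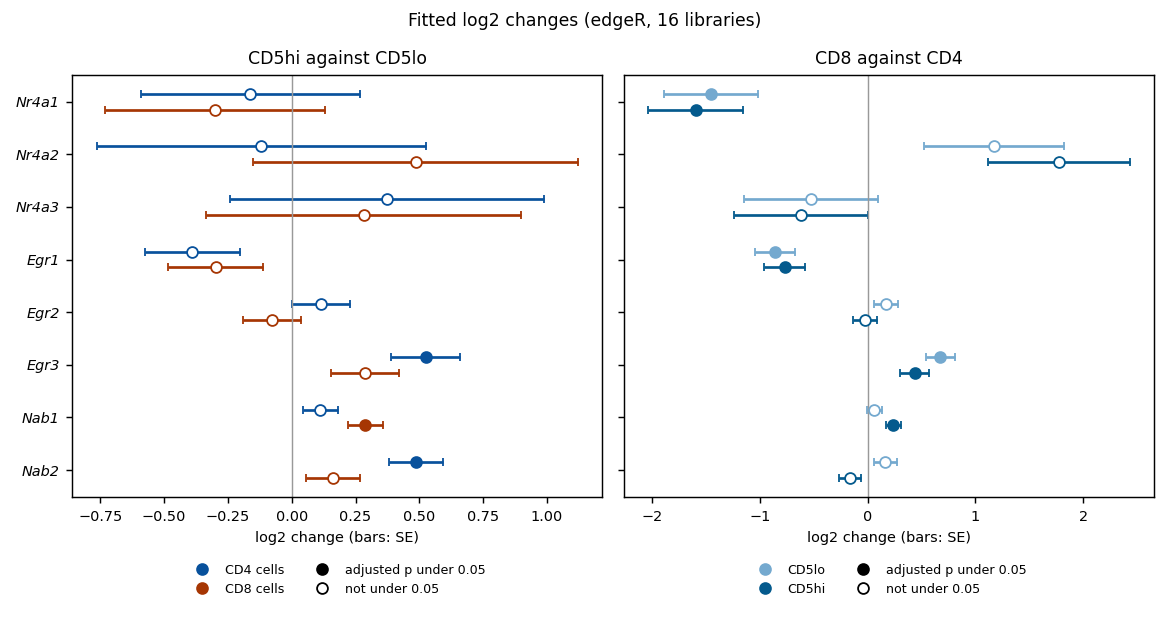
Fitted log2 change of each gene (horizontal axes) for CD5hi against CD5lo in each lineage and for CD8 against CD4 at each CD5 level, with bars of 1 SE from the edgeR fit over 16 libraries. Filled points have an adjusted p under 0.05; the Nr4a genes have the widest bars, and Egr3 lies to the right of 0 in all 4 comparisons.

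Nr4a1, on the plus strand at chr15:101254269-101274795, stood lower in CD8 than in CD4 cells at both CD5 levels. In CD4 cells, replicates 1 to 4 had 285, 805, 921 and 499.6 CPM in CD5lo and 267, 684, 696 and 598 in CD5hi. In CD8 cells they had 96.8, 305, 320.4 and 195 CPM in CD5lo and 80.6, 206, 211 and 247 in CD5hi. At high CD5 every CD8 library was below every CD4 library, and at low CD5 the groups overlapped, because CD4 CD5lo replicate 1 was under 2 of the CD8 libraries. Mean levels were 2.74-fold lower in CD8 cells at low CD5 and 3.02-fold lower at high CD5. Nr4a1 fell by 1.45 ± 0.44 on the log2 scale at low CD5 (SE, edgeR adjusted p = 0.0275) and by 1.59 ± 0.44 at high CD5 (SE, edgeR adjusted p = 0.0115). In same-numbered libraries the log2 difference lay between -1.56 and -1.35 at low CD5 and between -1.73 and -1.28 at high CD5, lower in 4 of 4 pairs each. The low-CD5 call did not survive the loss of CD4 CD5lo replicate 2 or 3, or of CD8 CD5lo replicate 1 or 4 (edgeR adjusted p from 0.0723 to 0.0854) and without the 3 B-marker-rich libraries (0.0704), while the block gave 1.15e-06. The high-CD5 call held in each of 17 alternatives, with an edgeR adjusted p of at most 0.0337.

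For the same gene, CD5hi and CD5lo cells did not differ beyond their spread. The log2 change of Nr4a1 with CD5 was -0.16 ± 0.43 in CD4 cells (SE, edgeR adjusted p = 0.986) and -0.30 ± 0.43 in CD8 cells (SE, edgeR adjusted p = 0.745). The groups overlapped in both lineages, and CD5hi was the lower in 3 of 4 same-numbered pairs of each. Without the 3 B-marker-rich libraries the CD4 value was 0.08, of the opposite sign and also not called (edgeR adjusted p = 0.988, between 0.656 and 1 over 17 alternatives).

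Nr4a2 (Nurr1), on the minus strand at chr2:57106830-57124003, went the other way between lineages and was the scarcest of the 3 Nr4a transcripts in CD4 cells. Replicates 1 to 4 of the CD4 cells had 3.41, 12.3, 22.2 and 10.7 CPM in CD5lo and 2.65, 9.61, 20.6 and 12 in CD5hi. The CD8 replicates had 10.3, 32.1, 46.2 and 21.1 CPM in CD5lo and 9.57, 40.3, 69.6 and 34.3 in CD5hi. Levels of the lineages overlapped, since each group spanned 4.48-fold to 7.77-fold from its lowest to its highest library. Within each of the 4 numbers, however, the CD8 library was higher than the CD4 library, by 0.97 to 1.59 on the log2 scale at low CD5 and by 1.52 to 2.06 at high CD5. Without the block the log2 difference was 1.17 ± 0.65 at low CD5 (SE, edgeR adjusted p = 0.260) and 1.78 ± 0.66 at high CD5 (SE, edgeR adjusted p = 0.0518), neither past the threshold. With the replicate block Nr4a2 was higher in CD8 cells by 1.26 ± 0.14 (SE, edgeR adjusted p = 4.47e-06) and 1.78 ± 0.14 (SE, edgeR adjusted p = 1.05e-07). Over 17 alternatives the edgeR adjusted p ran from 4.47e-06 to 0.522 at low CD5 and from 1.05e-07 to 0.16 at high CD5. At high CD5 the gene was also called without CD4 CD5hi replicate 3 (0.0316), without CD8 CD5hi replicate 1 (0.0205) and without the 3 B-marker-rich libraries (0.0498).

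With CD5, Nr4a2 changed by -0.12 ± 0.65 in CD4 cells (SE, edgeR adjusted p = 0.995) and by 0.49 ± 0.64 in CD8 cells (SE, edgeR adjusted p = 0.717). In CD8 cells 3 of 4 same-numbered pairs were higher in CD5hi, and in CD4 cells 1 of 4 was. The CD4 value changed sign, to 0.35, without the 3 B-marker-rich libraries (edgeR adjusted p = 0.967, between 0.622 and 1 over 17 alternatives), and the CD8 value was then 0.93 (edgeR adjusted p = 0.458).

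Nr4a3 (Nor1), on the plus strand at chr4:48045153-48086447, varied widely between replicates. Its CD4 levels in replicates 1 to 4 were 14.5, 39.1, 108.5 and 25.7 CPM in CD5lo and 32.1, 54.6, 114 and 42.4 in CD5hi. Its CD8 levels were 11, 31.2, 67.8 and 20.6 CPM in CD5lo and 23.6, 37.1, 70.7 and 27.1 in CD5hi. Replicate 3 was the highest and replicate 1 the lowest of all 4 groups, and all groups overlapped. Number by number, CD5hi exceeded CD5lo in 4 of 4 pairs in each lineage, by 0.07 to 1.14 in CD4 and 0.06 to 1.10 in CD8 cells on the log2 scale. Without the block the CD4 difference was 0.37 ± 0.62 (SE, edgeR adjusted p = 0.959) and the CD8 difference 0.28 ± 0.62 (SE, edgeR adjusted p = 0.844). With the replicate block Nr4a3 was higher in CD4 CD5hi than in CD4 CD5lo by 0.58 ± 0.16 (SE, edgeR adjusted p = 0.0297, between 0.0297 and 0.992 over 17 alternatives). In both lineages the sign of the unblocked value depended on single libraries: without 1 library it ran from -0.13 to 1.2 in CD4 cells and from -0.14 to 0.92 in CD8 cells. Without the 3 B-marker-rich libraries it was 1.20 in CD4 and 1.08 in CD8 cells (edgeR adjusted p = 0.293 and 0.215).

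Between lineages Nr4a3 had the same sign as Nr4a1. CD8 libraries were below same-numbered CD4 libraries in 4 of 4 pairs at each CD5 level, by 0.32 to 0.68 log2 units at low CD5 and by 0.44 to 0.69 at high CD5. The unblocked differences, -0.53 ± 0.62 and -0.62 ± 0.62, did not pass (SE, edgeR adjusted p = 0.664 and 0.495). With the replicate block Nr4a3 was lower in CD8 cells by -0.44 ± 0.16 at low CD5 and -0.58 ± 0.16 at high CD5 (SE, edgeR adjusted p = 0.0441 and 0.00749, up to 0.871 and 0.933 over 17 alternatives each).

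The makeup of the Nr4a family differed between lineages. Nr4a1 made up 94.8 ± 2.07% of the summed Nr4a level per kilobase in CD5lo and 92.7 ± 2.5% in CD5hi CD4 cells, and 85.0 ± 3.26% in CD5lo and 77.2 ± 7.08% in CD5hi CD8 cells (SD, n = 4). The Nr4a2 share was 1.49 ± 0.43%, 1.47 ± 0.64%, 8.49 ± 1.00% and 12.7 ± 4.88% in the same order (SD, n = 4). No CD8 library overlapped any CD4 library in either share. The ratio of Nr4a1 to Nr4a2 in CPM ran from 33.7 to 100.5 over the CD4 libraries and from 3.03 to 9.49 over the CD8 libraries. The Nr4a3 share was 3.71 ± 1.76%, 5.87 ± 2.14%, 6.56 ± 2.26% and 10.1 ± 3.93% and overlapped between neighbouring groups (SD, n = 4).

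**Figure D3:**
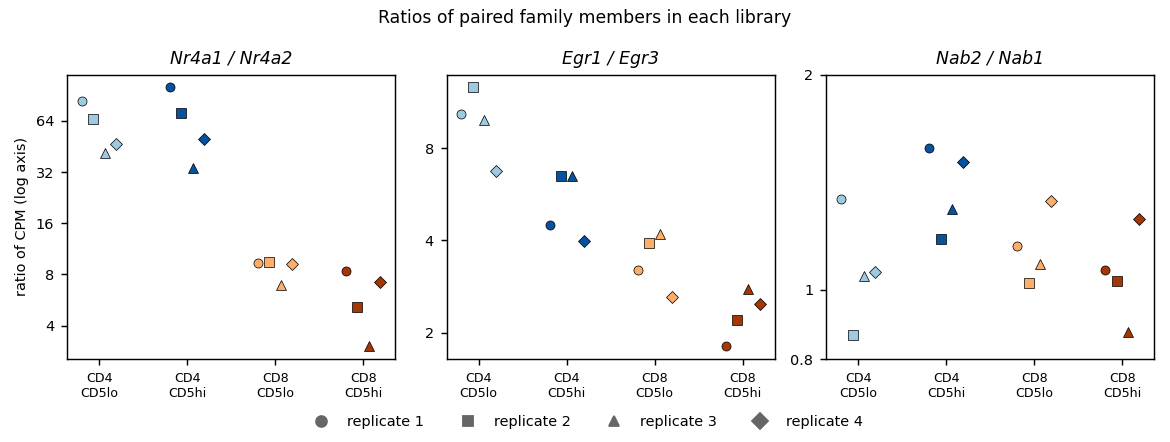
Ratio of CPM between paired members of each family in each library (log axes), with 1 point per library and the marker shape giving the replicate number. The Nr4a1 to Nr4a2 ratio is 33.7 to 100.5 in CD4 and 3.03 to 9.49 in CD8 libraries, and the Egr1 to Egr3 ratio falls from 6.75 to 12.6 in CD4 CD5lo to 1.81 to 2.77 in CD8 CD5hi.

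Egr1, a factor of the first wave after receptor signalling whose gene lies on chromosome 18, was lower in CD8 than in CD4 cells. In CD4 cells, replicates 1 to 4 had 383, 439.6, 343 and 229.9 CPM in CD5lo and 247, 329, 269.5 and 220.1 in CD5hi. In CD8 cells they had 158, 243, 193 and 175 CPM in CD5lo and 127, 165, 145 and 187 in CD5hi. The lineages did not overlap at high CD5, and at low CD5 only CD8 CD5lo replicate 2 exceeded a CD4 library, CD4 CD5lo replicate 4. Egr1 fell by 0.86 ± 0.19 on the log2 scale at low CD5 (SE, edgeR adjusted p = 0.0031) and by 0.77 ± 0.19 at high CD5 (SE, edgeR adjusted p = 0.00487), lower in 4 of 4 same-numbered pairs each. Mean levels were 1.82-fold and 1.71-fold lower. These calls held in each of the 17 alternatives run for either comparison, with an edgeR adjusted p of at most 0.0147 and 0.0225.

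With CD5, Egr1 did not pass in either lineage. Its log2 change was -0.39 ± 0.19 in CD4 cells (SE, edgeR adjusted p = 0.409) and -0.30 ± 0.19 in CD8 cells (SE, edgeR adjusted p = 0.373). CD5hi was the lower in 4 of 4 same-numbered pairs in CD4 cells and in 3 of 4 in CD8 cells, and the groups overlapped in both.

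Egr2, on the plus strand at chr10:67535475-67542188, varied little. Replicates 1 to 4 of the CD4 cells had 23.2, 26.6, 26.3 and 22.0 CPM in CD5lo and 25.7, 25.2, 25.5 and 29.9 in CD5hi. The CD8 replicates had 24.1, 27.8, 26.3 and 32 CPM in CD5lo and 27.9, 23.2, 22.5 and 31.0 in CD5hi. All groups overlapped, and the 4 log2 differences between groups lay between -0.08 ± 0.11 and 0.17 ± 0.11 (SE), with edgeR adjusted p of 0.372 to 0.899.

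Egr3, on the plus strand at chr14:70077203-70082614, was the Egr gene that was higher both with CD5 and in CD8 cells. Its CD4 levels in replicates 1 to 4 were 37.2, 34.9, 34.7 and 34.0 CPM in CD5lo and 55.0, 50.7, 41.5 and 55.2 in CD5hi. Its CD8 levels were 49.4, 62.0, 45.9 and 66.8 CPM in CD5lo and 70.4, 75.2, 52.5 and 75.7 in CD5hi. CD4 CD5lo lay below each of the other groups without overlap. Egr3 rose by 0.52 ± 0.13 on the log2 scale with CD5 in CD4 cells (SE, edgeR adjusted p = 0.0357), where mean levels differed 1.44-fold. In CD8 cells the change was 0.29 ± 0.13 (SE, edgeR adjusted p = 0.213), the groups overlapped, and CD5hi was higher in 4 of 4 same-numbered pairs of both lineages. That CD8 change was 0.17 without the 3 B-marker-rich libraries (edgeR adjusted p = 0.528) and, of the 17 alternatives, passed only with the replicate block (edgeR adjusted p = 0.0325). The difference between these changes was -0.24 ± 0.19 (SE, edgeR adjusted p = 0.932).

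The Egr3 call in CD4 cells was near the threshold. It was lost without any single library of CD4 CD5lo replicates 1 to 4 or of CD4 CD5hi replicates 1, 2 and 4 (edgeR adjusted p from 0.0645 to 0.115), in limma voom (0.0515) and without the 3 B-marker-rich libraries (0.0597). It stayed without CD4 CD5hi replicate 3 (edgeR adjusted p = 0.0212) and with the replicate block (0.00194), and the log2 change lay between 0.48 and 0.61 in all 17 alternatives.

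Between lineages Egr3 was higher in CD8 cells, by 0.67 ± 0.13 at low CD5 (SE, edgeR adjusted p = 0.00165) and by 0.44 ± 0.13 at high CD5 (SE, edgeR adjusted p = 0.0208). These correspond to 1.59-fold and 1.35-fold higher means, and CD8 was higher in 4 of 4 same-numbered pairs at each level. The low-CD5 call held in each of 17 alternatives, with an edgeR adjusted p of at most 0.00719. The high-CD5 call was lost without CD4 CD5hi replicate 3 (0.0612), CD8 CD5hi replicate 2 (0.0614) or CD8 CD5hi replicate 4 (0.0547, edgeR adjusted p).

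The balance of Egr1 and Egr3 shifted over the groups. The ratio of Egr1 to Egr3 in CPM was 6.75 to 12.6 in CD5lo and 3.99 to 6.49 in CD5hi CD4 cells, and 2.62 to 4.20 in CD5lo and 1.81 to 2.77 in CD5hi CD8 cells. Neighbouring groups in that order overlapped except the first pair. Egr1 made up 83.1 ± 3.43%, 75.1 ± 4.47%, 67.0 ± 4.45% and 59.9 ± 4.15% of the summed Egr level per kilobase in that order, and Egr3 8.92 ± 2.05%, 14.8 ± 2.84%, 20.1 ± 3.00% and 26.8 ± 3.11% (SD, n = 4).

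Nab1, on the minus strand at chr1:52457294-52500679, encodes a corepressor that is present without stimulation, and it rose with CD5 in CD8 cells. In CD4 cells, replicates 1 to 4 had 63.2, 74.1, 66.5 and 70.6 CPM in CD5lo and 73.1, 79.7, 70.9 and 72.7 in CD5hi. In CD8 cells they had 69.2, 76.9, 68.8 and 71.2 CPM in CD5lo and 88.3, 91.4, 90.4 and 79.4 in CD5hi. CD8 CD5hi lay above CD8 CD5lo without overlap, and the CD4 groups overlapped. Nab1 rose by 0.29 ± 0.07 on the log2 scale in CD8 cells (SE, edgeR adjusted p = 0.0140), a 1.22-fold higher mean, and the call was lost without CD8 CD5hi replicate 2 (edgeR adjusted p = 0.0578, between 0.000872 and 0.0578 over 17 alternatives). In CD4 cells the change was 0.11 ± 0.07 (SE, edgeR adjusted p = 0.615), with CD5hi higher in 4 of 4 same-numbered pairs, as in CD8 cells.

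Between lineages Nab1 was higher in CD8 cells at high CD5, by 0.24 ± 0.07 (SE, edgeR adjusted p = 0.0151, at most 0.0498 over 17 alternatives), though the groups overlapped. At low CD5 the difference was 0.06 ± 0.07 (SE, edgeR adjusted p = 0.652).

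Nab2, on the minus strand at chr10:127660918-127668568, encodes the corepressor that is induced along with the EGR factors, and it rose with CD5 in CD4 cells. Replicates 1 to 4 of the CD4 cells had 84.7, 64.1, 69.5 and 74.6 CPM in CD5lo and 115, 93.9, 91.9 and 109.6 in CD5hi. The CD8 replicates had 79.7, 78.7, 74.7 and 94.7 CPM in CD5lo and 94.0, 94.0, 78.9 and 99.9 in CD5hi. The CD4 groups did not overlap and the CD8 groups did. Nab2 rose by 0.49 ± 0.11 on the log2 scale in CD4 cells (SE, edgeR adjusted p = 0.0132), a 1.4-fold higher mean, in 4 of 4 same-numbered pairs by 0.40 to 0.55. The call was lost without CD4 CD5hi replicate 1 (edgeR adjusted p = 0.0511, between 0.000247 and 0.0511 over 17 alternatives). In CD8 cells the change was 0.16 ± 0.11 (SE, edgeR adjusted p = 0.4), also higher in 4 of 4 pairs.

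The difference between the CD5 changes of Nab2 in CD8 and in CD4 cells was -0.33 ± 0.15 on the log2 scale. It had an unadjusted p of 0.0453 and did not pass over all genes (SE, edgeR adjusted p = 0.632, between 0.0919 and 0.993 over 24 alternatives). Between lineages Nab2 differed by 0.16 ± 0.11 at low CD5 and by -0.16 ± 0.11 at high CD5 (SE, edgeR adjusted p = 0.357 and 0.272). The ratio of Nab2 to Nab1 in CPM was 0.865 to 1.34 in CD5lo and 1.18 to 1.58 in CD5hi CD4 cells, and 1.02 to 1.33 in CD5lo and 0.872 to 1.26 in CD5hi CD8 cells, overlapping throughout. Exons of Nab2 overlap the opposite strand's Gm16229 by 1050 bases (35.7% of the exonic bases of Nab2), Nemp1 by 151 and Stat6 by 40, and the strand setting of the counting is not given, so reads of these genes cannot be told apart there. The other 7 genes share no exonic bases with another gene in the annotation.

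The spread within groups was itself patterned by replicate number for the Nr4a genes. Replicate 1 was the lowest of its group in 4 of 4 groups for Nr4a1, Nr4a2 and Nr4a3. Replicate 3 was the highest in 4 of 4 groups for Nr4a2 and Nr4a3 and in 3 of 4 for Nr4a1. In both CD5lo groups that library was the B-marker-rich one. In CD8 CD5hi, Nr4a1 was highest in replicate 4, the B-marker-rich library, and Nr4a2 and Nr4a3 in replicate 3, which was not. In CD4 CD5hi no library was B-marker-rich. From replicate 1 to replicate 3 of the same group, Nr4a1 differed 2.61-fold to 3.31-fold, Nr4a2 4.48-fold to 7.77-fold and Nr4a3 3.00-fold to 7.47-fold. For Nr4a2 and for Nr4a3 this is more than any ratio between the gene's group means.

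**Figure D4:**
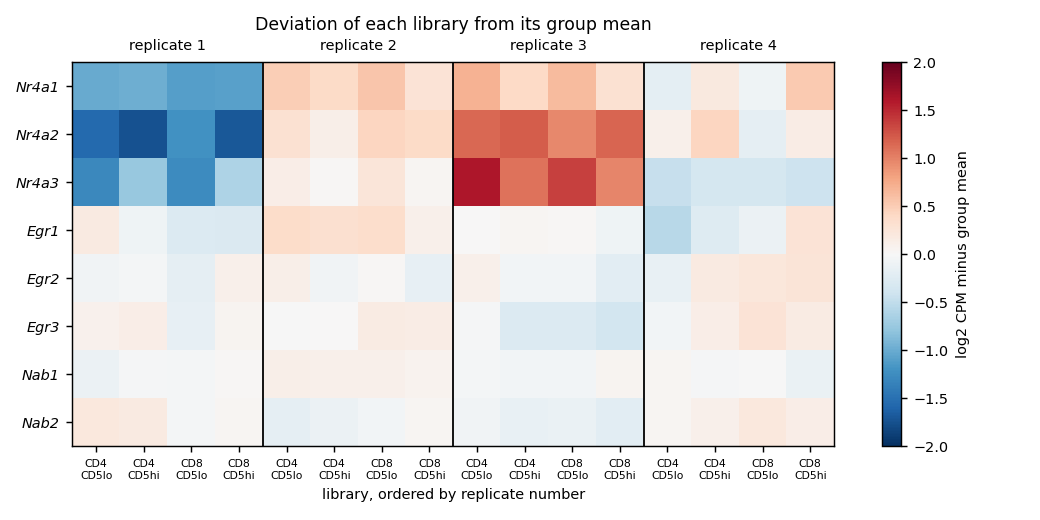
Deviation of each library from the mean of its group in log2 CPM (colour scale), with genes in rows and libraries ordered by replicate number. The Nr4a genes are low in all 4 libraries numbered 1 and high in those numbered 3, and the Egr and Nab genes show smaller deviations.

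Replicate number accounted for 92.9% of the within-group variance in log2 CPM of Nr4a1, 97.1% of that of Nr4a2 and 94.3% of that of Nr4a3. For Egr1, Egr2 and Egr3 the share was 46.8%, 26.4% and 61.5%, and for Nab1 and Nab2 it was 59.0% and 67.5%, beside a median of 58.8% over all tested genes. As deviations from group means over the 16 libraries, Nr4a1 and Nr4a2 had a Pearson r of 0.92, Nr4a2 and Nr4a3 of 0.86, and Nr4a1 and Nr4a3 of 0.79. Over the raw log2 levels Nr4a1 and Nr4a2 had an r of -0.01, with opposite differences between the lineages. Egr3 and Nab2 had an r of 0.75 as deviations, and Nab2 was opposite to the Nr4a genes, with -0.53 to -0.69. These correlations describe 16 libraries that share groups, numbers and handling.

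Stress genes shared that pattern in part. Atf3, a stress-induced factor, was lowest in replicate 1 in 4 of 4 groups and highest in replicate 3 in 3 of 4. It stood at only 0.026 to 4.94 CPM, so its 4.70-fold to 23.1-fold excess of replicate 3 over replicate 1 rests on low levels. In CD4 CD5lo, CD8 CD5lo and CD8 CD5hi its highest library was the B-marker-rich one, as was that of Nr4a1. The heat shock genes Hspa1a and Hspa1b were the reverse, highest in replicate 1 and lowest in replicate 3 in 4 of 4 groups. Fos and Jun, which cell handling also induces, were lowest in replicate 4 and in replicate 3 respectively in 4 of 4 groups. What the replicate numbers stand for is not given, and the part of handling in the Nr4a levels was not tested.

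Between groups, several handling and dissociation genes were lower with higher CD5. Of 26 such genes, 2 fell in CD4 CD5hi (Socs3 by 0.87 and Btg2 by 0.36 on the log2 scale), against 1.4% of all genes. In CD8 CD5hi 6 fell, against 3.51%, among them Socs3 by 1.33, Jun by 0.70, Btg2 by 0.44 and Dnajb1 by 0.43. The list medians were -0.25 and -0.31. With the replicate block 5 fell in CD4 cells, against 3.99% of all genes. Against CD4 cells, CD8 cells had 1 of the 26 higher and 3 lower at low CD5, against 10% and 9.44% of all genes. At high CD5, 4 were higher and 7 lower, against 15.6% and 14.8%. Ier3 was higher by 2.98 and 3.32 and Junb lower by -0.80 and -0.99. With the block, 2 were higher and 8 lower at low CD5, against 15.7% and 16.3%. At high CD5, 6 were then higher and 11 lower, against 23.4% and 23.3%. The summed level of the list ran from 10750 to 18050 CPM over the 16 libraries, and its part in the lower Nr4a1 and Egr1 of CD8 cells was not tested.

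Other early genes of T cell receptor signalling, a list chosen with earlier results of these data known, rose with CD5 in part. Of 38 tested, 6 rose in CD4 cells, against 2.68% of all genes. Tnfrsf9 (4-1BB, a costimulatory receptor) was higher by 2.79, Cd200 by 1.91, Hivep3 by 1.04 and Tnfrsf4 (OX40) by 0.82 on the log2 scale. In CD8 cells 5 rose and 1 fell, against 5.95% and 3.51%. Tnfrsf9 was higher there by 1.98, Cd200 by 1.63, the chemokine Xcl1 by 3.43 and Hivep3 by 1.15. Cd69, a surface marker of recent signals, changed by -0.32 ± 0.21 in CD4 and -0.25 ± 0.21 in CD8 cells (SE, edgeR adjusted p = 0.657 and 0.541). Without the 3 B-marker-rich libraries 9 rose in each lineage, and 2 fell in CD8 cells. That fit called 534 of all genes in CD4 cells, against 553 with all libraries, and its shares by direction are not given here. The list medians were 0.15 and 0.08, beside -0.01 and 0.00 for all genes, and 0.37 and 0.27 without those libraries.

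Between lineages the same list went both ways. At low CD5, 3 were higher and 6 lower in CD8 cells, against 10% and 9.44% of all genes. At high CD5, 6 were higher and 11 lower, against 15.6% and 14.8%. The block raised these counts to 8 and 12, against 15.7% and 16.3%, and to 9 and 15, against 23.4% and 23.3%. Without the 3 B-marker-rich libraries 5 were higher and 4 lower at low CD5, and the shares of all genes in that fit are not given here. Xcl1 was higher in CD8 cells by 3.65 and 6.15 and the growth regulator Myc by 0.52 and 0.58 at low and high CD5. Cd200 was lower by -0.83 and -1.11, Tnfrsf4 by -0.46 and -1.55 and Cish by -0.91 and -1.54 at low and high CD5. Cd69 differed by 0.41 ± 0.21 and 0.48 ± 0.21 (SE, edgeR adjusted p = 0.225 and 0.101), the opposite sign to Nr4a1 and Egr1.

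Genes that carry signals to Egr and Nr4a transcription changed little with CD5. Of 36 tested ERK, SRF, calcineurin and MEF2 genes, Elk3, a partner of serum response factor, rose in CD4 cells by 0.42 and in CD8 cells by 0.28, and Hdac7, a repressor of Nr4a1 in thymocytes, fell in CD4 cells by 0.47 (edgeR adjusted p of 0.00255, 0.0268 and 0.00602). These were the only edgeR calls in either lineage without the block. Hdac7 changed by -0.30 in CD8 cells and just missed the threshold (edgeR adjusted p = 0.0527). DESeq2 called 4 of the 36 in CD4 cells, where it called 777 of all genes, and 5 in CD8 cells. The shares of all genes called were 2.68% higher and 1.4% lower in CD4 cells, and 5.95% and 3.51% in CD8 cells. With the block 3 rose and 1 fell in CD4 cells, against 5.69% and 3.99% of all genes. In CD8 against CD4 cells, 6 were higher and 3 lower at low CD5, against 10% and 9.44% of all genes. At high CD5, 5 were higher and 4 lower, against 15.6% and 14.8%. With the block the lineage counts were 8 and 5, against 15.7% and 16.3%, and 9 and 8, against 23.4% and 23.3%. Hdac7 was higher in CD8 cells by 0.60 and 0.77 and Ppp3ca, a calcineurin subunit, by 0.48 and 0.46 at low and high CD5. Rasgrp1, which activates RAS, was lower by -0.51 and -0.42 in the same order.

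Genes linked to NR4A factors in T cells, a list chosen with earlier results of these data known, rose with CD5 in part. Of 15 tested, 7 rose in CD4 cells, against 2.68% of all genes. In CD8 cells 5 rose and 1 fell, against 5.95% and 3.51%. The list medians were 0.57 and 0.25. The inhibitory receptor gene Pdcd1 rose by 1.98 and 1.77 in CD4 and CD8 cells. In that order Ikzf4 rose by 1.42 and 0.82, Ikzf2 by 2.63 and 1.5 and Tox by 0.57 and 0.35. The death gene Bcl2l11 (Bim) rose by 0.65 and 0.83. In CD8 against CD4 cells 1 was higher and 4 lower at low CD5, against 10% and 9.44% of all genes. At high CD5, 2 were higher and 8 lower, against 15.6% and 14.8%. The block gave 2 higher and 6 lower at low CD5, against 15.7% and 16.3%. Ikzf2 was higher in CD8 cells by 3.55 and 2.42, and Runx1 was lower by -1.22 and -1.55, Gata3 by -1.04 and -1.17 and Ikzf4 by -0.79 and -1.39.

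Genes bound or raised by EGR2 and EGR3 in anergic T cells, a list chosen with earlier results of these data known, also rose in part. Of 19 tested, 5 rose and 1 fell with CD5 in CD4 cells, against 2.68% and 1.4% of all genes. In CD8 cells 6 rose and 1 fell, against 5.95% and 3.51%. The list medians were 0.29 and 0.18. Izumo1r (folate receptor 4) rose by 2.43 and 1.01 and Nt5e (CD73) by 2.09 and 0.66 in CD4 and CD8 cells. In that order Ndrg1 rose by 1.39 and 1.84 and Nrgn by 5.04 and 4.08. Dgka, a kinase that lowers diacylglycerol, fell by 0.43 in CD8 cells. The block gave 8 higher and 2 lower in CD4 cells, against 5.69% and 3.99% of all genes. In CD8 against CD4 cells 2 were higher and 4 lower at low CD5, against 10% and 9.44% of all genes. At high CD5, 2 were higher and 7 lower, against 15.6% and 14.8%. Crtam was higher by 1.19 and 1.86 at low and high CD5, and Nt5e by 1.81 at low CD5. Izumo1r was lower by -0.58 and -2 at low and high CD5. Dgka was lower by -0.34 and -0.59 and the cell cycle inhibitor Cdkn1b by -0.46 and -0.57. With the block the lineage counts were 4 and 7, against 15.7% and 16.3%, and then 5 and 9, against 23.4% and 23.3%.

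Several genes of these lists, Tnfrsf9, Tnfrsf4, Foxp3, Ikzf2, Ikzf4, Izumo1r and Nt5e, are also regulatory T cell markers. Of 15 such markers tested, 10 rose with CD5 in CD4 cells, against 2.68% of all genes. Without the 3 B-marker-rich libraries 12 rose there, in a fit that called 534 of all genes, against 553 with all libraries. In CD8 cells 6 rose, against 5.95%, and none of the markers was at 0 throughout. Their summed level was 174 to 216 CPM in CD5lo and 494 to 584 in CD5hi CD4 cells, and 515 to 684 in CD5lo and 476 to 572 in CD5hi CD8 cells. Within the CD8 sum, Itgae (CD103, also expressed by CD8 T cells), a gene picked out after its values were seen, stood at 362 to 483 CPM in CD8 CD5lo, 204 to 305 in CD8 CD5hi and 3.36 or less in CD4 libraries. Foxp3, which defines the lineage, stood at 3.98 to 5.96 CPM in CD4 CD5lo, 14.4 to 22.1 in CD4 CD5hi and 1.45 to 8.31 in the CD8 groups. The sort took CD25- cells, and how many regulatory cells remained was not measured. The part of regulatory cells in the higher Egr3 and Nab2 of CD4 CD5hi was not tested. Fewer cells of a type and less RNA per cell cannot be told apart in these bulk libraries.

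Memory markers moved with CD5 in CD8 cells and with lineage. Of 10 tested, 2 rose in CD4 CD5hi, against 2.68% of all genes. In CD8 CD5hi 4 rose, against 5.95%. Without the 3 B-marker-rich libraries 8 rose there, and the share of all genes in that fit is not given here. In CD8 against CD4 cells 7 were higher at low and 9 at high CD5, against 10% and 15.6%. Their sum was 49.8 to 76.1 CPM in CD5lo and 89.4 to 107 in CD5hi CD4 cells, and 343 to 567 in CD5lo and 757 to 1134 in CD5hi CD8 cells. Eomes, a memory and effector factor, was at 1.49 to 5.46 CPM in CD4 and 33.7 to 159 in CD8 libraries. The sort took CD44lo CD62Lhi cells, and how many memory cells remained was not measured. The part of memory cells in the higher Nab1 of CD8 CD5hi and in the lineage differences was not tested.

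Markers of other cells were low. Myeloid and dendritic markers (14 in the table, 11 tested) summed to 4.85 to 28.3 CPM over the libraries, with Lyz2 at 10.7 CPM or less. The sum was highest in the B-marker-rich libraries, at 17.6 in CD4 CD5lo replicate 3, 23.3 in CD8 CD5lo replicate 3 and 28.3 in CD8 CD5hi replicate 4. It was 10.35 CPM or less in the others. Natural killer markers (7 in the table, 1 tested) summed to 0.102 to 5.88 CPM, with Klra4 at 0 in all 16 libraries and Ncr1 at 0 in 9. The 11 naive T cell markers summed to 6311 to 8750 CPM.

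The chromatin partners of the NAB proteins changed little with CD5. Of 13 tested, 0 passed with CD5 in CD4 cells (edgeR, 0 at an unadjusted p under 0.05, and 0 in DESeq2 and limma voom). Of all genes, 2.68% were higher and 1.4% lower there. Rbbp7 and Rbbp4, histone-binding subunits, rose in CD8 cells by 0.35 and 0.23, against 5.95% of all genes higher. In CD8 against CD4 cells, the remodeller gene Chd3 was lower by -0.54 and -0.75, and Rbbp7 was higher by 0.38 and 0.55 and Gatad2a by 0.58 and 0.62. Those 3 were the calls at low CD5, and at high CD5 Hdac1 was also lower, by -0.22. The shares of all genes called were 10% higher and 9.44% lower at low CD5, and 15.6% and 14.8% at high CD5.

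Among 8954 genes with a mean of at least 5 CPM, those whose log2 level over the 16 libraries was most like each member were ranked by Pearson r. Nr4a1 was closest to Pnrc1 (0.98), Herpud1 (0.97) and Sepn1 (0.97), Nr4a2 to Spata13 (0.98), Fzd5 (0.98) and Zbed3 (0.97), and Nr4a3 to Cenpa (0.97), Ipmk (0.96) and Ddx24 (0.95). Egr1 was closest to Sertad1 (0.94), Nfkbiz (0.93) and Nfkbid (0.91), and Egr3 to Lrrc20 (0.91) and Slc35g1 (0.91). Nab1 was closest to Kpnb1 (0.95), Nap1l1 (0.93) and Cnih1 (0.93), and Nab2 to Smarcb1 (0.90), Thoc5 (0.89) and Ephx1 (0.88). For Egr2 the highest values were lower, 0.73 with Fam220a, 0.62 with Rhno1 and 0.61 with Alkbh3. As deviations from group means the 9 genes named for the Nr4a members kept an r of 0.92 or more, whereas Slc35g1 had 0.43 with Egr3.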

How the data were processed

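RNA of sorted naive T cells was sequenced in 16 libraries, 4 per group, after TruSeq RNA version 2 or TruSeq stranded mRNA preparation, per the labels' protocols; which kit made which library and the strand setting are not stated in the sources used here. The deposited values are raw read counts per gene, 1 column per sample, although the series' design names 2 technical replicates each. The submitters' processing notes name STAR 2.5.2a, featureCounts 1.4.6-p3, DESeq2 and the mouse build mm10. All 16 columns were mapped to samples, and 0 were left unmapped. Of the gene names, 27 stand as dates in the table.

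Counts were normalised by TMM and filtered with filterByExpr (minimum count 10, minimum total 15), which left 13554 of 24421 genes. Group terms over all 16 libraries (12 residual degrees of freedom) were tested with edgeR 4.0.16 (quasi-likelihood, two-sided, R 4.3.3), with Benjamini-Hochberg adjustment in each of 5 comparisons at 0.05. The standard error is the log2 change divided by the square root of F. CPM use effective library sizes, and CPM per kilobase the union of GENCODE vM21 exons (GRCm38). Alternatives were RLE size factors, no filter or a mean of at least 1 CPM, DESeq2 1.42.0, limma voom (limma 3.58.1), a replicate block, only the groups compared, halved counts, and leaving out the 3 B-marker-rich libraries or single libraries. On simulated data over 13554 genes, 200 of them changed, the test recovered 54.5% of genes changed 1.5-fold and 71.7% of those changed 2-fold in the CD4 CD5 comparison, 49% and 78.8% in the CD8 one, 16.5% and 51.5% for the difference between them, 48.5% and 70.7% between lineages at low CD5, and 48.5% and 74.7% at high CD5. Unchanged genes called numbered 14, 7, 4, 5 and 6 in the same order. The simulated libraries held no deviations shared by replicate number, unlike the real ones.

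Replicate numbers in the labels were taken to pair groups where the deviations from group means of every same-numbered pair correlated above 0.1 over genes. This held for CD4 CD5lo with CD4 CD5hi (0.25 to 0.53), CD4 CD5lo with CD8 CD5lo (0.20 to 0.70) and CD4 CD5hi with CD8 CD5hi (0.23 to 0.54), and not for every pair of CD8 CD5lo with CD8 CD5hi (-0.04 to 0.56). Of the groups not compared, it held for CD4 CD5hi with CD8 CD5lo (0.27 to 0.53). It did not hold for every pair of CD4 CD5lo with CD8 CD5hi (-0.03 to 0.37). The 8 genes and the lists of related genes and markers were chosen with earlier results of these data known. Named were the 8 genes, at most 4 genes of the smallest adjusted p per list and comparison, the 3 genes most like each of the 8, and Cd5, Cd69 and Cd74 with defining markers. A change of such a list gene was also given for the other lineage or CD5 level where it was called. Outside that rule, Atf3, Hspa1a, Hspa1b, Fos and Itgae were named after their values were seen. One gene among those most like a member is not reported here. Sequences are from RefSeq tables on GRCm38.p6.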

Additional observations from a re-analysis of the deposited data

Results flagged for a closer look

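Egr2 in CD4 CD5hi replicate 4 stood at 29.9 CPM, apart from the other 3 libraries of its group (25.2 to 25.7 CPM). The gap made up 0.897 of the group's range, above Dixon's critical value for 4 samples. Chance marks about 1 in 20 groups this way, and 8 genes in 4 groups were examined.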

How the results depend on the processing

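Each of the 8 genes kept its direction and its side of the threshold in all 5 comparisons under RLE size factors and under both other filters. DESeq2 and halved counts added Nr4a2 at high CD5, and limma voom lost Egr3 in CD4 cells. In CD4 cells 1 of the 8 genes was called in limma voom and 1 without the 3 B-marker-rich libraries, against 2, and leaving out single libraries gave 0 to 2. In CD8 cells the replicate block gave 2 (Egr3 added, edgeR adjusted p = 0.0325) against 1, with 13.4% of all genes higher and 11.6% lower, and single libraries 0 to 1. At low CD5 the block gave 5 against 3; beside the calls named in the text, it changed no other call of the 8 genes. Same-numbered libraries of CD8 CD5lo and CD8 CD5hi did not all deviate together (2 of 4 correlations over 0.1, 4 of 8 libraries closest to their own number). With CD5 in CD8 cells the block gave 9 higher and 8 lower early response genes (5 and 1 without it), 2 and 9 handling genes (0 and 6), and 3 and 6 ERK, SRF, calcineurin and MEF2 genes (1 and 0). Over all genes, the block gave 1312 calls against 553 in CD4 cells, 3390 against 1282 in CD8 cells, 379 against 42 for the difference between them, 4345 against 2638 at low and 6336 against 4111 at high CD5. For that difference DESeq2 gave 215, the fit without the 3 libraries 129, and leaving out single libraries 8 to 165. In CD8 cells a fit of only the groups compared gave 813, and single libraries 763 (without CD8 CD5hi replicate 2) to 1647, with 811 without CD8 CD5lo replicate 4. A fit of only the groups compared does not apply to the difference, which needs all 4. Signs turned only for values that were not called. Without the 3 libraries the CD4 log2 change of Nr4a1 was 0.084 and of Nr4a2 0.35. Leaving out single libraries, the range was -0.40 to 0.084 for Nr4a1, -0.59 to 0.35 for Nr4a2 and -0.13 to 1.2 for Nr4a3 with CD5 in CD4 cells, and -0.14 to 0.92 for Nr4a3 and -0.17 to 0.017 for Egr2 in CD8 cells. For the difference it was -0.38 to 0.12 for Nr4a1, -0.91 to 0.55 for Nr4a3 and -0.035 to 0.25 for Egr1. Between lineages it was -1.17 to 0.30 for Nr4a3 at low and -0.12 to 0.057 for Egr2 at high CD5. The causes were not tested. With 4 libraries a group and the replicate spread of the Nr4a genes, SEs of 0.43 to 0.65 on the log2 scale limit what can be detected in them without the block.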
